A study of Mus musculus with 6 samples.

Results

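Common reference genes of quantitative PCR, 9 in number, were followed here through RNA-seq of cells sorted from the adult mouse olfactory bulb (OB): Actb, Gapdh, Hprt, Tbp, Ppia, Ywhaz, Sdha, Rplp0 and Polr2a. They were chosen by their gene symbols, with earlier results of these data known, and all 9 were found among the 24421 genes listed in each of 6 libraries. Of these, 3 libraries came from Sox9fl/fl mice (Sox9 KO) and 3 from mice with unmodified Sox9 (control), which the labels give as C57BL/6J and WT and the study's methods as Sox9+/+; 1 library was made per mouse. The OB of every mouse, controls included, had been injected with AAV-GFAP-iCre-P2a-TurboRFP, a virus in which the GFAP promoter drives the recombinase Cre and a red fluorescent protein, and TurboRFP-positive cells were sorted 4 weeks later. The mice were adult males according to the study's methods, with no exact age stated. The GFAP promoter and the sort on 1 fluorescent protein decided which cells entered a library, and Cre can delete Sox9 only in cells that the virus reached.

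A reference gene serves as the denominator of a relative expression value, and the value is only as steady as that denominator. Reference genes are usually taken from functions that every cell needs, so that they report how much RNA was loaded and not what the cell was doing. The 9 genes cover the actin cytoskeleton (Actb), glycolysis (Gapdh), purine salvage (Hprt), transcription (Tbp and Polr2a), the ribosome (Rplp0), protein folding (Ppia), phosphoprotein binding (Ywhaz) and mitochondrial respiration (Sdha). The study normalized its own qPCR to ActinB or GAPDH, and the comparison made here asks how far each of the 9 genes differed between the groups of sorted cells.

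The libraries held between 18242129 and 86906527 reads on genes and between 17734 and 18625 genes above 0. The values are normalized read counts, that is reads divided by 1 size factor per library. Sox9, the deleted gene, was at 58.2 ± 5.88 normalized counts in Sox9 KO against 5556 ± 881 in control (SD, n = 3). The cells were labelled as astrocytes. All 8 astrocyte markers tested were lower in Sox9 KO, with a sum of 201602 to 215711 normalized counts in control libraries against 21062 to 22517 in Sox9 KO libraries, and all 10 markers of microglia and macrophages were higher, with sums of 170837 to 196310 against 606371 to 722533. Aqp4, an astrocyte water channel, went from 60397 ± 3942 to 6352 ± 1235 (SD, n = 3), and Csf1r, a receptor of microglia and macrophages, from 36390 ± 4827 to 145495 ± 22232 (SD, n = 3). Of the other lists, 7 of 8 neuron, 6 of 6 oligodendrocyte, 3 of 3 oligodendrocyte precursor, 4 of 4 mural and 5 of 5 olfactory ensheathing markers were called lower, border macrophage markers were split 3 to 3, endothelial markers gave 1 higher and 2 lower of 5, and the haemoglobin genes Hba-a1, Hbb-bs and Hbb-bt were at 0 in every library. These markers moved between the same groups as the reference genes, and their part in the values that follow was not tested. In bulk RNA of this kind, fewer cells of a type and less RNA per cell cannot be told apart.

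Of the 9 genes, 3 were called higher in Sox9 KO, namely Hprt, Actb and Rplp0, and 1, Gapdh, was called lower, where a call needed an adjusted p under 0.05 and a change of at least 1.5-fold. Across all 18413 genes tested, 51.0% were called, 22.2% higher and 28.8% lower, so that 4 of 9 is a share near that of all genes. Without the limit on the fold, 8 of the 9 genes passed an adjusted p of 0.05, 6 of them higher and 2 lower, beside 61.3% of all genes. The Sox9 KO and control libraries did not overlap for 8 of the 9 genes, beside 67.2% of all genes. The median absolute log2 fold change of the 9 genes was 0.47 and that of all genes tested was 0.87. Among genes with a mean of at least 1000 normalized counts it was 0.75. Ppia was the gene whose groups overlapped.

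**Figure D1:**
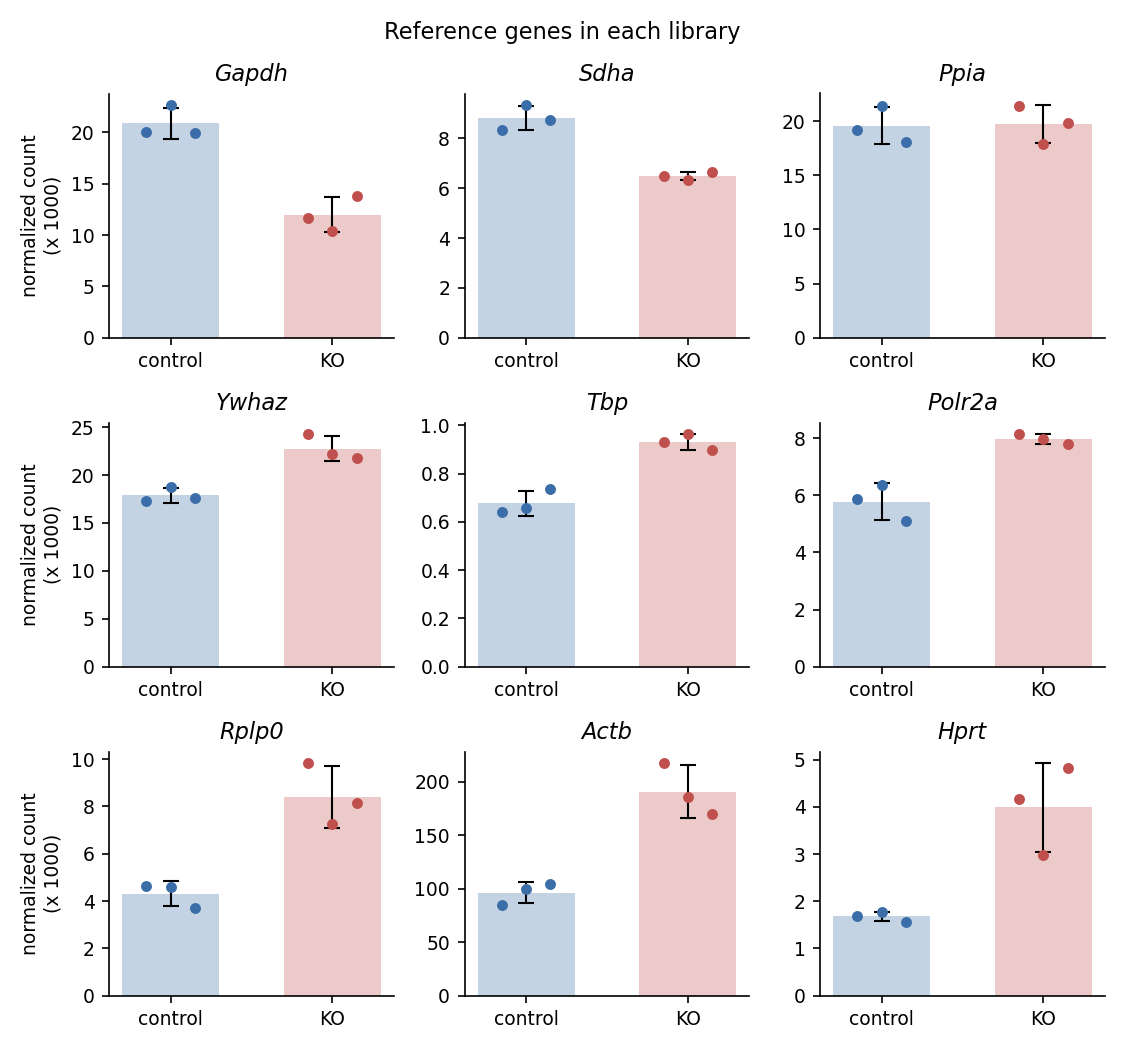
Normalized count (divided by 1000, y axis) of each of the 9 reference genes in the 3 control and the 3 Sox9 KO libraries (points); bars are means and error bars are SD, n = 3. The panels run from Gapdh, lower in every Sox9 KO library, through Ppia, whose groups overlap, to Hprt, higher in every Sox9 KO library.

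Levels can be set against each other between genes only per length of transcript. Per kilobase of its principal transcript, Actb was the most abundant of the 9 in control, at 50196 ± 5230 normalized counts per kilobase (SD, n = 3). Ppia at 16724 and Gapdh at 16436 followed and did not differ beyond their spread. Ywhaz stood at 5435, Rplp0 at 3174, Sdha at 3040, Hprt at 1302, Polr2a at 858 and Tbp at 358 normalized counts per kilobase, and Rplp0 and Sdha again lay within each other's spread. Tbp also has a longer principal transcript, over which its control level would be 53.0, so that it was the lowest of the 9 on either length. In Sox9 KO the order changed at 1 place, where Hprt at 3097 passed Sdha at 2241, and Gapdh at 9402 ± 1341 stood below Ppia at 16846 normalized counts per kilobase. Ywhaz stood at 6919 ± 403 and Rplp0 at 6190 ± 966 (SD, n = 3), so that their ranges of 1 SD overlapped. Even the gene with the fewest reads, Tbp, had at least 437 reads in every library, and Actb had up to 469916.

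The bases before the transcription start are shown for 3 of the genes, the one with the largest rise (Hprt), the one called lower (Gapdh) and the one whose groups overlapped (Ppia). Promoter sequences were matched by symbol for 7 of the 9 genes, from RefSeq on GRCm38.p6, and are given for the 250 bases before the start, 5′ to 3′ on the gene's strand. Capitals mark matches, on either strand, to the TATA box (TATAAA), the CCAAT box (CCAAT), the GC box (GGGCGG), a CArG box (the site of the serum response factor) or the Sox sites ACAAAG and AACAAT; none of these motifs overlapped another in the windows shown.
Hprt, chrX:52987828-52988077, plus strand: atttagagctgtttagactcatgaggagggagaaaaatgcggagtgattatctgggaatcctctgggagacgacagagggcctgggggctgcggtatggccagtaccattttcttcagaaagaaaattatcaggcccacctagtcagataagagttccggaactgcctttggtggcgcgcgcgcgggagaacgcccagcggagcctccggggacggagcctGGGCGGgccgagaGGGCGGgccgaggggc
Gapdh, chr6:125165774-125166023, minus strand: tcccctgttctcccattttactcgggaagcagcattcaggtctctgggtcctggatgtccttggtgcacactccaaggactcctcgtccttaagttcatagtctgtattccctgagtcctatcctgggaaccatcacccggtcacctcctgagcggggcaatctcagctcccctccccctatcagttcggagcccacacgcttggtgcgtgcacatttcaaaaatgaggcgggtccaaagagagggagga
Ppia, chr11:6415617-6415866, plus strand: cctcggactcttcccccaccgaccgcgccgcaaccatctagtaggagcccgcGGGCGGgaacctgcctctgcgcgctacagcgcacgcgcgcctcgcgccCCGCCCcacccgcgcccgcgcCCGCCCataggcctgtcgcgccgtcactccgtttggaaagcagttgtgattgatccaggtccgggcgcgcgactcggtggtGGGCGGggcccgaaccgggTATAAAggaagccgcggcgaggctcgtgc
The window of Hprt held 2 GC boxes, beginning 29 and 16 bases before the start, and no TATA box. The window of Ppia held 4 GC boxes and a TATA box that began 29 bases before the start, and its GC content was 72.4% against a median of 52.4% over all 32851 promoters in the table. The window of Gapdh, which lies inside the annotated gene because the outermost annotated start is farther upstream, held no match to these letters. Among the other matched genes, Polr2a had a TATA box and 3 GC boxes, Rplp0 had 2 CCAAT boxes and 1 GC box, Tbp had 1 GC box and Sdha had 1 CCAAT box. No Sox site and no CArG box was found in any of the 7 windows. Actb and Ywhaz had no matched sequence and were not searched. Over all promoters, 16.5% held ACAAAG, 9.42% AACAAT, 1.47% a CArG box, 12.4% TATAAA, 33.8% CCAAT and 32.7% GGGCGG. A match is a run of letters and not a site shown to be bound.

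Actb encodes β-actin, the main building block of non-muscle actin filaments. It lies on chromosome 5 at 142903115-142907976 (mm10, minus strand), and it was counted at 85041, 99925 and 104160 normalized counts in the control libraries and at 217422, 185507 and 169505 in the Sox9 KO libraries. Every Sox9 KO library was above every control library, and the lowest Sox9 KO value was well clear of the highest control value. The mean was 1.98-fold higher in Sox9 KO, with a log2 fold change of 0.98 (SE 0.15, 95% interval 0.65 to 1.31, adjusted p = 0.000198), except after quantile normalization, where the log2 fold change was -0.040 (adjusted p = 0.786). With no filter on low values the estimate was the same, 0.98, but the call was lost (adjusted p = 0.237). Actb ranked between 7 and 9 among all genes in each library, and quantile normalization gives genes of the same rank the same value. Of the other actins, limma called 0 of 5 in either direction, beside 51.0% of all genes. At an unadjusted p under 0.05 in limma 1 was higher, and edgeR called 1 higher and DESeq2 0. The limma count depended on the scaling, with 1 called higher after TMM scaling and 2 called higher after quantile normalization. Actg1, the cytoplasmic γ-actin, was at 24407 ± 2877 in control and 35449 ± 4905 in Sox9 KO (SD, n = 3), a log2 fold change of 0.54 (SE 0.13, adjusted p = 0.00443), below 1.5-fold, and -0.10 after quantile normalization. The muscle actins were rare, with at most 73.0 normalized counts for Acta2 and 18.2 for Acta1 in any library, and Actc1 was too low to be tested.

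Gapdh encodes glyceraldehyde-3-phosphate dehydrogenase, an enzyme of glycolysis. It lies on chromosome 6 at 125161852-125166467 (mm10, minus strand), with 20064, 22665 and 19991 normalized counts in control and 11664, 10421 and 13794 in Sox9 KO. The groups did not overlap, and the control libraries lay close together. Gapdh fell by 0.81 on the log2 scale (SE 0.12, 95% interval of the log2 fold change -1.07 to -0.56, adjusted p = 0.000132), to 0.572 of its control mean, and it was lower under every scaling tried. The other enzymes of the pathway went mostly the same way: 11 of 16 were called lower and 1 higher, beside 28.8% and 22.2% of all genes. Aldoc, the aldolase of astrocytes and also on the astrocyte marker list, went from 41953 ± 4502 to 2214 ± 290 (SD, n = 3), a log2 fold change of -4.25. Ldhb, a lactate dehydrogenase subunit, changed by -1.64 and Pgam1, a phosphoglycerate mutase, by -1.38 on the log2 scale. Hk2, an inducible hexokinase, was the exception, rising from 2012 ± 332 to 7400 ± 722 (SD, n = 3), with a log2 fold change of 1.89 (SE 0.13, adjusted p = 5.39e-07).

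Hprt encodes hypoxanthine-guanine phosphoribosyltransferase, which recycles purine bases into nucleotides. It lies on the X chromosome at 52988078-53021660 (mm10, plus strand). Control libraries held 1692, 1773 and 1571 normalized counts and Sox9 KO libraries 4175, 2977 and 4825. The groups did not overlap, and the Sox9 KO libraries were the most spread of any of the 9 genes, with a coefficient of variation of 23.5% against 6.03% in control. Hprt showed the largest change among the 9 on the values as deposited, 2.38-fold higher in Sox9 KO, with a log2 fold change of 1.22 (SE 0.16, 95% interval 0.87 to 1.57, adjusted p = 6.27e-05), and it was called higher under every scaling tried. With libraries scaled to the same total its log2 fold change was 0.98, smaller in size than the -1.06 of Gapdh, and after quantile normalization the values were 1.04 and -1.42. Its partners in purine salvage went both ways, 2 of 7 called higher and 2 lower, 57.1% beside 51.0% of all genes. Prps2, which makes the phosphoribosyl donor that Hprt uses, was at 3051 ± 298 in control and 5968 ± 142 in Sox9 KO (SD, n = 3), a log2 fold change of 0.97, and Ada, adenosine deaminase, changed by 1.46. Adk, adenosine kinase, changed by -1.51 and Gda, guanine deaminase, by -1.62 on the log2 scale.

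Tbp encodes the TATA-binding protein, which seeds the transcription complex at promoters, and Polr2a the largest subunit of RNA polymerase II. Tbp, on chromosome 17 at 15499888-15517427 (mm10, plus strand), had 639, 658 and 736 normalized counts in control and 929, 963 and 896 in Sox9 KO. Polr2a, on chromosome 11 at 69733997-69758633 (mm10, minus strand), had 5863, 6379 and 5105 in control and 8140, 7983 and 7805 in Sox9 KO. For both genes every Sox9 KO library was above every control library. The log2 fold changes on the values as deposited were nearly the same, 0.46 for Tbp (SE 0.11, adjusted p = 0.00439) and 0.47 for Polr2a (SE 0.10, adjusted p = 0.00178), both below 1.5-fold. With libraries scaled to the same total they were 0.22 (adjusted p = 0.171) and 0.23 (adjusted p = 0.0627), and neither passed. After quantile normalization they parted, at 0.56 for Tbp (adjusted p = 0.00157) and 0.047 for Polr2a (adjusted p = 0.68).

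The complexes that these proteins belong to held both called and uncalled subunits. Of 13 TFIID subunits and relatives, 4 were called higher (Taf5, Taf7, Taf10 and the TBP-like Tbpl1) and 0 lower by limma, beside 22.2% and 28.8% of all genes, with 6 higher and 2 lower at an unadjusted p under 0.05. By edgeR 5 were called higher and 0 lower and by DESeq2 4 and 0, and limma called 1 higher and 1 lower with libraries scaled to the same total and 8 higher and 0 lower after quantile normalization. The most abundant of them, Taf1 and Taf2, had log2 fold changes of -0.20 (adjusted p = 0.0567) and -0.19 (adjusted p = 0.12). Of 12 other RNA polymerase II subunits, limma called 0 higher and 3 lower, beside 22.2% and 28.8% of all genes, with 1 higher at an unadjusted p under 0.05 and 0 called higher by edgeR or DESeq2. Polr2b, which forms the active centre together with Polr2a, was at 2751 ± 166 in control and 2908 ± 53.2 in Sox9 KO (SD, n = 3), a log2 fold change of 0.082 (adjusted p = 0.433). The 3 called lower were Polr2m at -0.69, Polr2f at -1.06 and Polr2l at -1.31 on the log2 scale, and after quantile normalization 2 of the 12 were called higher and 2 lower.

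Rplp0 encodes the base of the ribosomal stalk, on which translation factors dock. It lies on chromosome 5 at 115559467-115563729 (mm10, plus strand), with 4643, 4579 and 3707 normalized counts in control and 9829, 7245 and 8146 in Sox9 KO. The lowest Sox9 KO library was far above the highest control library. Rplp0 was 1.95-fold higher in Sox9 KO, with a log2 fold change of 0.96 (SE 0.13, 95% interval 0.67 to 1.25, adjusted p = 9.26e-05), and 0.57 after quantile normalization, just under 1.5-fold. Both other stalk proteins were called higher, beside 22.2% of all genes, by a like amount and under every scaling tried. Rplp1 went from 6381 ± 315 to 13772 ± 1605 (SD, n = 3), a log2 fold change of 1.10, and Rplp2 from 3250 ± 233 to 6774 ± 954 (SD, n = 3), a log2 fold change of 1.05.

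Ppia encodes cyclophilin A, a prolyl isomerase that helps proteins fold and binds cyclosporin. It lies on chromosome 11 at 6415867-6419817 (mm10, plus strand), with 19211, 21438 and 18051 normalized counts in control and 21419, 17887 and 19822 in Sox9 KO. The groups overlapped over nearly their whole range. The log2 fold change was 0.010 (SE 0.10, 95% interval -0.22 to 0.24, adjusted p = 0.939), an interval that corresponds to 0.857-fold to 1.18-fold. Its direction depended on the scaling: it was -0.23 with libraries scaled to the same total (adjusted p = 0.0651), -0.32 when the ribosomal RNA gene Rn45s was left out of that total (adjusted p = 0.0155) and -0.63 after quantile normalization (adjusted p = 0.000263). Of 15 other cyclophilins, 5 were called higher and 3 lower, 53.3% beside 51.0% of all genes. The 5 were no longer called with libraries scaled to the same total, and after quantile normalization 7 were called higher and 3 lower. Ranbp2, a nuclear pore protein with a cyclophilin domain, went from 7910 ± 900 to 13760 ± 1205 (SD, n = 3), a log2 fold change of 0.80, and Nktr had 0.63. The mitochondrial Ppif changed by -1.20, Ppic by -1.80 and Ppil6 by -3.34 on the log2 scale.

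Ywhaz encodes 14-3-3 zeta, an adaptor that binds phosphorylated proteins. It lies on chromosome 15 at 36770261-36802984 (mm10, minus strand), with 17291, 18745 and 17580 normalized counts in control and 24265, 22168 and 21812 in Sox9 KO. The groups did not overlap, but the step between them was small, 1.27-fold. The log2 fold change was 0.35 (SE 0.09, 95% interval 0.15 to 0.55, adjusted p = 0.00676), 0.10 with libraries scaled to the same total (adjusted p = 0.355) and -0.32 after quantile normalization (adjusted p = 0.00632). Ywhaz and Ppia were the 2 of the 9 genes whose interval stayed within 1.5-fold either way on the values as deposited. Of 6 other 14-3-3 genes, 1 was called higher and 1 lower, 33.3% beside 51.0% of all genes: Ywhah went from 3296 ± 252 to 6001 ± 311 (SD, n = 3), a log2 fold change of 0.87, and the epithelial Sfn from 56.8 ± 13.6 to 12.2 ± 6.30 (SD, n = 3). After quantile normalization Ywhah was no longer called and 3 of the 6 were called lower. Ywhae, the most abundant of the others, had a log2 fold change of -0.34 (adjusted p = 0.0158) and Ywhab 0.082 (adjusted p = 0.488).

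Sdha encodes the catalytic subunit of succinate dehydrogenase, complex II of the respiratory chain. It lies on chromosome 13 at 74322255-74350240 (mm10, minus strand), with 8356, 9337 and 8759 normalized counts in control and 6493, 6334 and 6672 in Sox9 KO. The groups did not overlap and were tight, with coefficients of variation of 5.59% and 2.61%. Sdha fell by 0.44 on the log2 scale (SE 0.08, 95% interval of the log2 fold change -0.62 to -0.25, adjusted p = 0.001), below 1.5-fold, and it was lower under every scaling tried, at -0.68 with libraries scaled to the same total. Of 7 partners, 0 were called higher by limma, edgeR or DESeq2, or were higher at an unadjusted p under 0.05. All 3 tools called 2 lower, 28.6% beside 28.8% of all genes in limma, which in limma were Sdhc at -0.75 and the assembly factor Sdhaf1 at -0.98 on the log2 scale, and after quantile normalization limma called 2 higher and 2 lower. Sdhb, which carries the iron-sulfur clusters, had -0.51 (adjusted p = 0.00267), and Sdhd, which anchors the complex in the membrane, was at 2399 ± 118 in control and 2414 ± 302 in Sox9 KO (SD, n = 3).

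**Figure D2:**
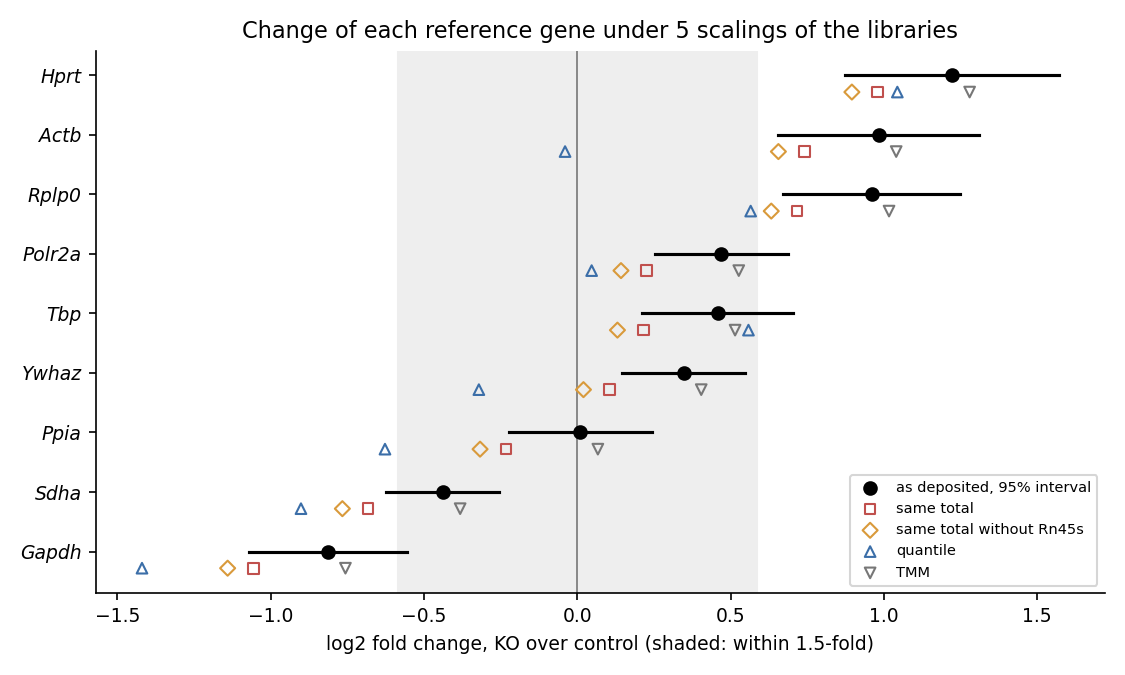
Log2 fold change, Sox9 KO over control, of each reference gene (x axis) with the values as deposited (filled circles, line: 95% interval from limma) and after 4 other scalings of the libraries (open symbols). The shaded band is a change within 1.5-fold; Gapdh and Sdha lie left of 0 and Hprt and Rplp0 right of it under all 5, while Actb and Ywhaz change sides after quantile normalization and Ppia also with the 2 scalings to the same total.

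The scalings differed in where they put the median gene. The median log2 fold change of all genes was -0.066 on the values as deposited, -0.29 with libraries scaled to the same total, -0.37 when Rn45s was left out of that total and 0.19 after quantile normalization. Relative to that median, Hprt stood at 1.29 on the values as deposited, 1.27 with the same total and 0.85 after quantile normalization. Polr2a stood at 0.54, 0.52 and -0.15, and Gapdh at -0.75, -0.76 and -1.61. Ppia stood 0.076 above the median gene on the values as deposited, 0.061 above it with the same total and at -0.82 after quantile normalization. The scalings that multiply a library by 1 factor left the order of the 9 genes as it was, and quantile normalization did not.

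Steadiness was described by the standard deviation (SD) of log2 values over the 6 libraries, without regard to group. On the values as deposited Ppia had the smallest, 0.115, smaller than that of all but 2.63% of the genes tested. Ywhaz followed with 0.201, Sdha with 0.247, Tbp with 0.262 and Polr2a with 0.278, with 11.2%, 16.4%, 18.2% and 19.9% of the genes below them. Gapdh had 0.468, Rplp0 0.556 and Actb 0.559, and Hprt had 0.709, above the median of 0.660 for all genes. Among genes with a mean of at least 1000 normalized counts the median was 0.435, and Gapdh, Rplp0, Actb and Hprt all lay above it. On that scale 5.18% of the genes lay below Ppia and 19.0% below Ywhaz. This order depended on the scaling: the smallest SD of the 9 was that of Ywhaz, 0.0683, with libraries scaled to the same total, where Ppia had 0.147, and that of Actb, 0.0531, after quantile normalization, where Ppia had 0.356. Within groups, on the values as deposited, the picture was different, since the difference between groups is then left out. Sdha had the smallest pooled SD within groups, 0.0628, then Ywhaz with 0.073 and Tbp with 0.0847, and 8 of the 9 genes lay under the median of 0.250 for all genes. Hprt, with 0.260, was the exception. Actb and Gapdh had within-group SDs of 0.169 and 0.161, and Rplp0 had 0.203. Among genes with a mean of at least 1000 normalized counts the median within groups was 0.129, and Actb, Gapdh, Rplp0 and Hprt lay above it.

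Another measure of steadiness needs no scaling of the libraries. The M value of geNorm is the mean SD of a gene's log2 ratios to the other 8 genes, so that a small M means that a gene kept its proportion to the rest. Ywhaz had the lowest M, 0.348, followed by Polr2a with 0.361, Tbp with 0.374 and Ppia with 0.408. Rplp0 had 0.476, Actb 0.490, Sdha 0.557, Hprt 0.603 and Gapdh 0.740, the highest. When the gene of highest M was dropped in turn, Gapdh went first, then Sdha, Hprt, Ppia, Rplp0, Actb and Tbp, which left Polr2a and Ywhaz with an M of 0.112. Among the 3 control libraries alone all 9 genes had M values between 0.0986 and 0.184, and among the 3 Sox9 KO libraries between 0.149 and 0.328, all below the values over both groups. Ppia, which had the smallest SD on the values as deposited, came after Ywhaz, Polr2a and Tbp by M, a measure taken against the other 8 genes, 6 of which were higher in Sox9 KO on those values.

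**Figure D3:**
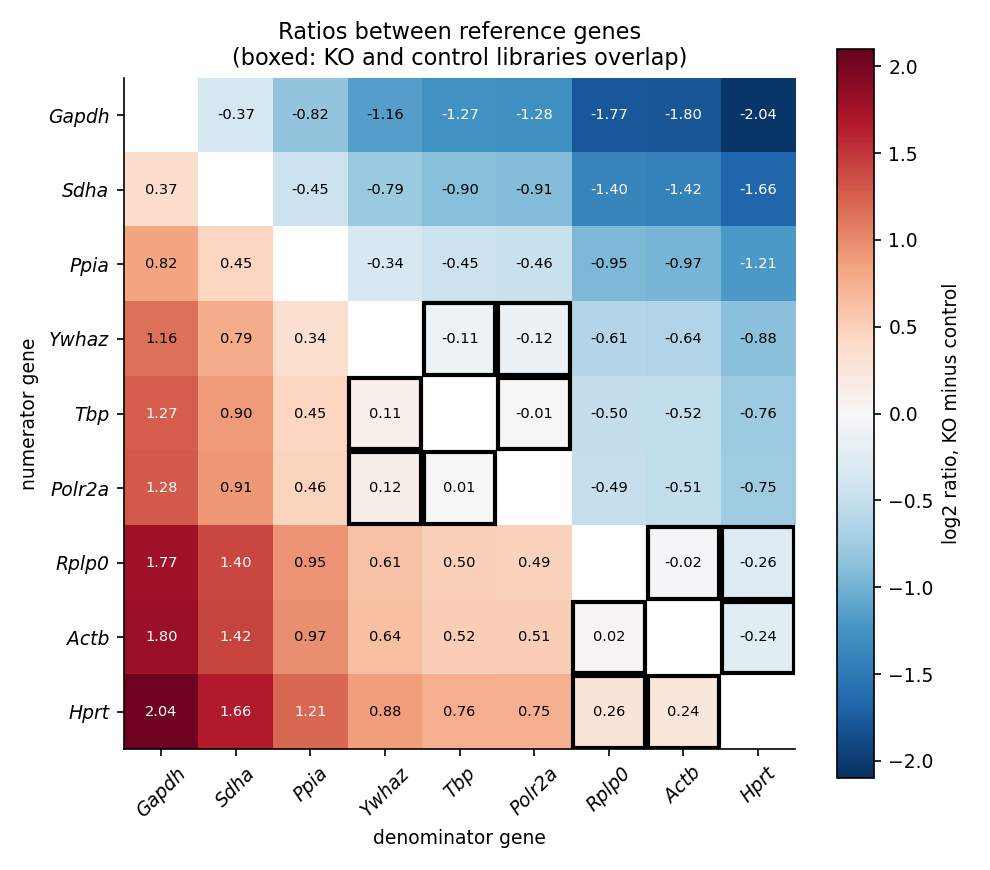
Difference of the log2 ratio of 2 reference genes between Sox9 KO and control (mean of 3 libraries each), with the numerator gene in rows and the denominator gene in columns; red, higher ratio in Sox9 KO. Black frames mark the 6 pairs whose Sox9 KO and control libraries overlap, which form a block of Ywhaz, Tbp and Polr2a and a block of Rplp0, Actb and Hprt; the largest difference is the 2.04 between Hprt and Gapdh.

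The ratio of 2 genes within a library does not depend on how libraries are scaled, and the 9 genes make 36 such pairs. For 30 of the 36 pairs the ratios in Sox9 KO and control did not overlap, 21 differed by over 1.5-fold and 10 by over 2-fold, with a median of 1.69-fold. The 36 pairs share 9 genes and are not independent. The share among pairs of other genes was not computed, and of all single genes 67.2% did not overlap. With 3 libraries against 3, the exact permutation test cannot give a two-sided p below 0.1, and it gave 0.1 for the pairs that did not overlap. The 6 pairs that overlapped fell into 2 sets of 3 genes, in each of which every pair overlapped. The first held Tbp, Polr2a and Ywhaz. The ratio of Tbp to Polr2a was 0.117 in both groups, with a difference of -0.011 on the log2 scale (within-group SD 0.19). The second held Actb, Rplp0 and Hprt, where the ratio of Actb to Rplp0 was 22.4 in control and 22.8 in Sox9 KO, a difference of 0.023 on the log2 scale (within-group SD 0.24). Ppia was not in either set, and its nearest partner was Ywhaz, with a ratio of 1.09 in control and 0.865 in Sox9 KO. Gapdh and Sdha, both lower in Sox9 KO, changed unequally, with a ratio of 2.37 in control and 1.83 in Sox9 KO.

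The 2 reference genes of the study's qPCR moved in opposite directions on the values as deposited. The study names GAPDH for its knockdown of the glutamate transporter GLT-1, and its primer list for the RNA-seq targets holds ActinB and not GAPDH. Per library, the ratio of Actb to Gapdh had a geometric mean of 4.60 in control and 15.98 in Sox9 KO, a 3.47-fold difference (1.80 on the log2 scale, within-group SD 0.26). With each library left out in turn this difference stayed between 1.68 and 1.99. The largest difference of any pair was that of Gapdh to Hprt, 12.4 in control and 3.03 in Sox9 KO, or 4.10-fold.

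**Figure D4:**
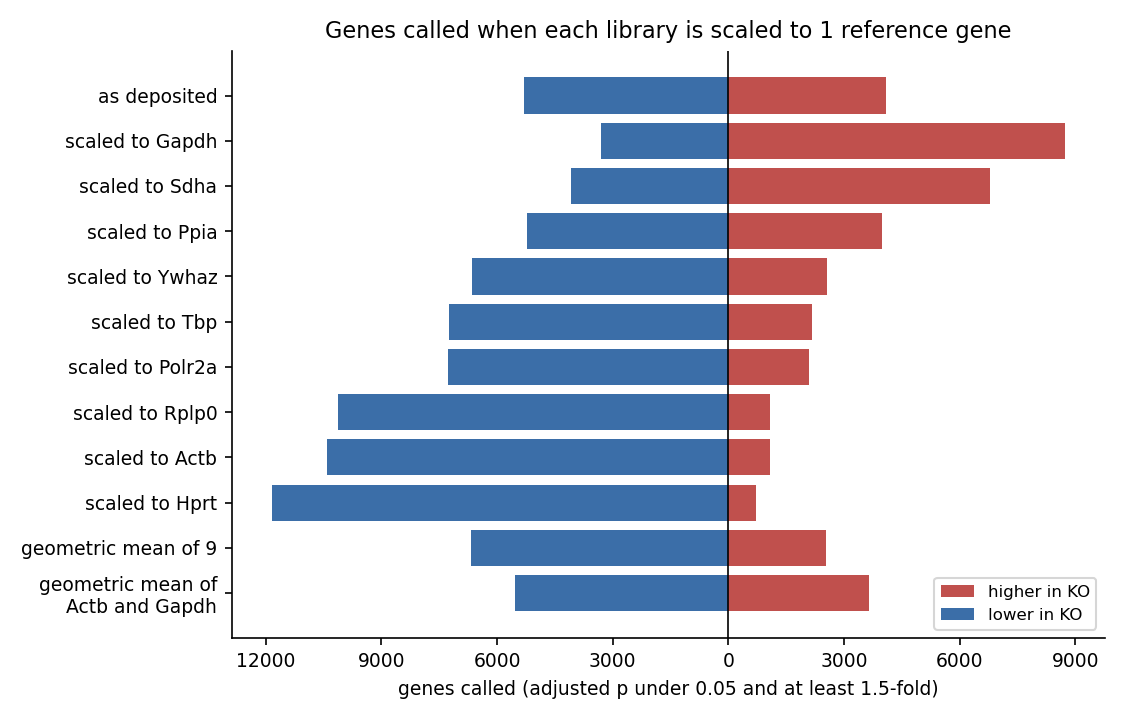
Number of genes called higher (red, right) or lower (blue, left) in Sox9 KO (limma, adjusted p under 0.05 and at least 1.5-fold, of 18413 genes) with the values as deposited and after each library was scaled to 1 reference gene or to a geometric mean of several. Calls run from 8730 higher and 3302 lower with Gapdh to 720 higher and 11849 lower with Hprt.

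Scaling every library to 1 reference gene changed which way most genes appeared to go. On the values as deposited, 4090 genes were called higher and 5299 lower in Sox9 KO, 56.4% of the calls lower. Scaled to Gapdh, 8730 were higher and 3302 lower. Scaled to Actb, 1075 were higher and 10416 lower, so that the share of calls that were lower went from 27.4% with Gapdh to 90.6% with Actb. Hprt gave 94.3% lower and Rplp0 90.3%, whereas Sdha gave 37.6%. Ppia gave 56.8% lower, the split nearest to that of the values as deposited, with 3976 higher and 5228 lower. This follows from its log2 fold change of 0.010 on those values and is no further result about Ppia. Tbp, Polr2a and Ywhaz gave 77.1%, 77.7% and 72.3%, and the geometric mean of all 9 gave 72.6%. The geometric mean of Actb and Gapdh gave 60.3% lower.

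The same shift applies to the RNA-seq value of any single gene set against a reference gene. It was followed for 16 targets of the study's qPCR, together with Sox9, in the RNA-seq values alone. These targets were selected on these libraries and are therefore no independent sample. Relative to Gapdh the log2 fold change of Sox9 was -5.73, relative to Actb -7.53 and relative to Hprt -7.77, against -6.54 with no reference. The distance between the lowest and the highest reference was 2.04 on the log2 scale for every target. With each of the 9 references, 4 targets were higher and 12 lower in Sox9 KO, as without one. The target whose place relative to 1.5-fold depended on the reference was Nfia, a transcription factor of glial cells, at -0.20 relative to Gapdh, where the groups overlapped, -0.57 relative to Sdha, -1.99 relative to Actb and -2.23 relative to Hprt. The groups of Best1 also overlapped relative to Hprt, where its log2 fold change was 0.79.

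For each of the 9 genes the nearest profiles were sought among 11925 genes with a mean of at least 100 normalized counts, by the Euclidean distance between log2 values centred on their mean over the 6 libraries. Rplp2 lay close to Actb (distance 0.115), and those nearest to Hprt were Rpl32 (0.171) and Arpc5 (0.209), which encodes a subunit of an actin-nucleating complex. Rplp2 and Rpl32 encode ribosomal proteins. Gapdh was nearest to Reep5 (0.134) and Decr1 (0.165), and Ppia to Cops3 (0.0679) and Prkar2a (0.075). Polr2a was nearest to Vapa and Fut11, Tbp to Ccnt2 and Smc1a, Ywhaz to Zfpl1 and Tmf1, Sdha to Kansl2 and Slc25a22, and Rplp0 to Med7 and Sertad1, at distances between 0.0597 and 0.119. None of the 9 had another of the 9 within these distances: the closest pair of members was Ywhaz and Polr2a, at 0.251.

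A further 34 genes that are also used as references were read in the same fit. Of these, 8 were called higher and 6 lower in Sox9 KO, 41.2% beside 51.0% of all genes, and 14 had an interval within 1.5-fold either way. Among the largest changes were those of B2m, the light chain of class I histocompatibility molecules, from 79196 ± 9858 to 398251 ± 46121 (SD, n = 3), a log2 fold change of 2.33 (SE 0.16, adjusted p = 5.43e-07), and of the transferrin receptor gene Tfrc, from 2373 ± 213 to 787 ± 149 (SD, n = 3), at -1.61. Gusb, a lysosomal glucuronidase, had 1.49 and the ribosomal protein gene Rpl32 had 1.22. The smallest changes were those of the chaperone Hsp90ab1 and the splicing factor Snrpd3, at -0.0052 and -0.0076, then Chmp2a at 0.051, the proteasome subunit Psmb4 at -0.072 and Vcp at -0.096. Hsp90ab1 was at 30580 ± 5023 in control and 30301 ± 3342 in Sox9 KO (SD, n = 3), with a 95% interval of the log2 fold change from -0.31 to 0.30. With libraries scaled to the same total, 5 of the 34 were called higher and 7 lower, and after quantile normalization 4 and 8. Eno1, a glycolytic enzyme, and Oaz1, both named after their values were seen, are active in most cells but were listed at control means of 9.76 and 1.54 normalized counts. Neither the labels nor the methods say how reads shared between copies of a gene were counted, and Actb, Gapdh, Ppia and Rplp0 have processed copies in the genome, so their levels are uncertain to that extent.

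**Figure D5:**
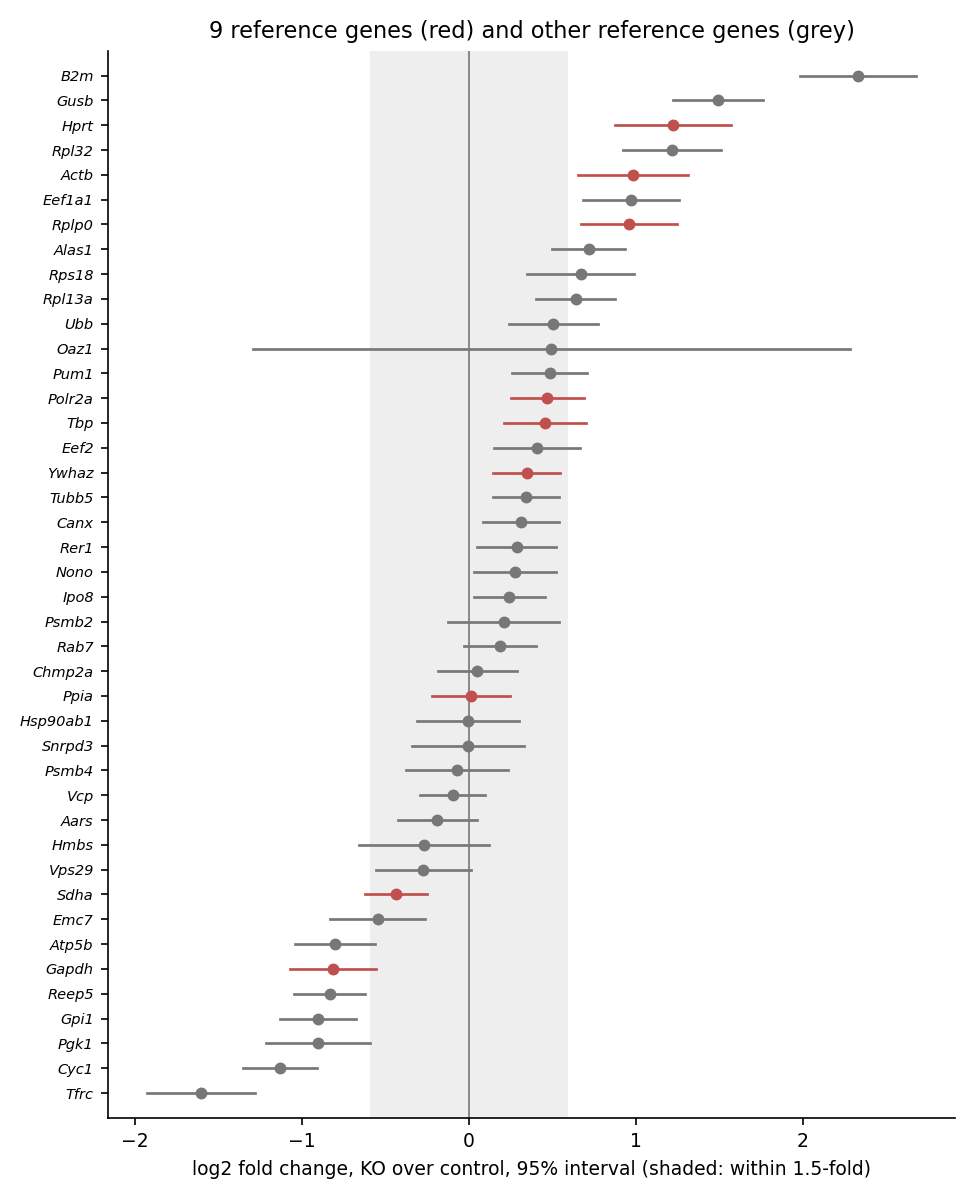
Log2 fold change, Sox9 KO over control, with its 95% interval from limma (x axis) for the 9 reference genes (red) and other reference genes (grey), in order of size; the shaded band is a change within 1.5-fold. The genes run from Tfrc at -1.61 to B2m at 2.33, with Ppia, Hsp90ab1 and Snrpd3 next to 0, and Oaz1, at means of 1.54 and 2.38 normalized counts, has the widest interval.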

How the data were processed

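RNA-seq was analysed from 6 libraries, 3 control and 3 Sox9 KO, made with the Trio RNA-Seq System from 10 ng of total RNA. The authors mapped reads with STAR 2.5.0a to mm10, built gene counts in GenomicAlignments and GenomicFeatures, and took normalized values from DESeq2 1.20.0; a normalization of the alignments for depth with samtools is stated too. Which annotation and strand setting they used was not stated. The deposited signal values carry the name RPM, but the numbers are counts of reads over a size factor, 1 for each library, since 100% of the values in a library were whole multiples of what 1 read is worth within 0.01 read. They are called normalized counts. No column was left unused, and 27 of the 24421 row names are dates.

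The main test was limma 3.58.1 (R 4.3.3) with a variance trend on log2(normalized count + 1), for 18413 genes with a mean of at least 1, with two-sided p-values and Benjamini-Hochberg adjustment over all of them. Fold changes are Sox9 KO over control on that scale, which understates the change of low genes. A call needed an adjusted p of 0.05 and 1.5-fold. Recovered reads were also tested with edgeR 4.0.16 (quasi-likelihood) and DESeq2 1.42.0. The fits were also run on simulated data in which few genes changed, unlike here. That run therefore says nothing about the scaling of these libraries. Pairs of genes were compared by the exact permutation test. Coordinates and promoters are from RefSeq GRCm38.p6, which is mm10, and lengths are those of GENCODE principal transcripts.

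The reference genes, the lists of partners and markers and the alternatives were chosen with earlier results of these data known. Named are the 9 genes, Sox9, Rn45s, at most the 3 most abundant genes of a list and those called against most of it, the 5 other reference genes of largest and of smallest change, the 2 genes nearest to each of the 9, the 5 steadiest genes and targets that depend on the reference. Genes that make up a count of 5 or fewer were named after their values were seen. Taf4 was not analysed here, and neither were the study's qPCR values. Some single genes that this rule would name are not reported here.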

Additional observations from a re-analysis of the deposited data

How the results depend on the processing

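The log2 fold changes of Gapdh, Hprt, Tbp and Polr2a kept their direction and their side of the call under all 18 alternatives, although 8 of the 9 genes passed the adjusted p alone on the values as deposited and 5 did with libraries scaled to the same total, when Tbp, Polr2a and Ywhaz did not. Actb lost its call with no filter on low values (0.98) and stood at -0.040 after quantile normalization. Quantile normalization also gave -0.32 for Ywhaz, -0.63 for Ppia, -0.90 for Sdha, then called, and 0.57 for Rplp0, no longer called. With libraries scaled to the same total, Ppia was at -0.23 and Sdha, then called, at -0.68; without Rn45s in the total they were at -0.32 and -0.77. With 1 library left out in turn Ppia ranged from -0.052 to 0.078 and the other 8 kept their direction and side, and the calls over all genes ranged from 8748 to 9111.

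Of 9389 calls on the values as deposited, 4090 were higher and 5299 lower. Higher calls were 1075 scaled to Actb, 8730 to Gapdh, 720 to Hprt, 2155 to Tbp, 2554 to Ywhaz, 6791 to Sdha, 1088 to Rplp0, 2084 to Polr2a and 2520 to the geometric mean of the 9; 2629 scaled to the same total without Rn45s; and 2514 at 2-fold. Lower calls were 10416 scaled to Actb, 3302 to Gapdh, 11849 to Hprt and 10137 to Rplp0. The split was 5342 higher and 4117 lower after quantile normalization and 2936 and 6191 with the same total. Sox9 stood at -7.53 relative to Actb, -5.73 to Gapdh, -7.77 to Hprt, -7.00 to Tbp, -6.89 to Ywhaz, -6.11 to Sdha, -7.50 to Rplp0, -7.01 to Polr2a and -6.90 to the geometric mean of the 9. The median SD of the 9 genes was 0.278 over the 6 libraries, 0.128 within groups and 0.476 as the M value. None of the 216 pair values with 1 library left out moved by more than the within-group SD. With 3 libraries a group this could not have come out otherwise, so it shows nothing about their steadiness. Where no cause follows from how an alternative was built, the cause was not tested.

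With the replicate number as a block, 9275 genes were called and the 9 genes kept their direction and side, with a log2 fold change of 0.010 for Ppia. Deviations of same-numbered libraries correlated at -0.051, -0.013 and -0.013, and no library correlated best with its own number. The values thus gave no sign that the numbers pair the samples, which so few libraries cannot exclude.

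With 3 libraries a group, a ratio between 2 genes cannot reach an exact p under 0.1. A p that misses the threshold does not show that a gene is stable, which is why intervals are given. The SD over 6 libraries mixes the difference between groups with the spread within them, and it depends on the scaling: it moved by more than the within-group SD for 6 of the 9 genes after quantile normalization, 4 with the same total and 0 with TMM.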

Other observations

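Among 5208 genes with a mean of at least 1000 normalized counts, the 5 with the smallest SD of log2 values over the 6 libraries were Rab2a, Nbr1, Mier3, Clk4 and Ubr4. Rab2a, a small GTPase of the secretory pathway, had an SD of 0.0339, with 5320 ± 64.7 normalized counts in control and 5133 ± 85.1 in Sox9 KO (SD, n = 3). Nbr1, an autophagy receptor, had 3965 ± 129 and 4030 ± 59.6 (SD, n = 3), an SD over the 6 libraries of 0.0349. Mier3 had an SD of 0.0392, the kinase gene Clk4 0.0399 and the ubiquitin ligase gene Ubr4 0.0409, against 0.115 for Ppia. The 95% interval of the log2 fold change of Rab2a was -0.22 to 0.12. These genes were picked for their small SD on the values as deposited, so that the SD is a description of these libraries and not a test, and like every value set across libraries it holds for that scaling.

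Of all genes tested, 2330, or 12.7%, had a 95% interval of the log2 fold change within 1.5-fold either way, and of the genes with a mean of at least 1000 normalized counts 1186, or 22.8%. Of the 9 reference genes 2 did, and of the 34 other reference genes 14.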
